A study of Mus musculus with 18 samples.

Results

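The genes described here encode the proteins of the cytosolic ribosome. They were the protein-coding genes of the count tables whose GENCODE vM21 symbol is Rpl or Rps with a number and at most one of the endings a, x, y, l or l1, together with Rplp0, Rplp1, Rplp2 and Rpsa. The rule found 82 of the 55471 genes counted. Of these, 46 were core genes of the large subunit, 30 were core genes of the small subunit and 6 were paralogs, whose symbols end in l or l1 (Rpl3l, Rpl7l1, Rpl10l, Rpl22l1, Rpl39l and Rps27l). A further 4 symbols fit the pattern but are annotated as pseudogenes, and these were left out. All 82 genes passed the filter on low counts in every fit.

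RNA was sequenced from E14 cells, a mouse embryonic stem cell line, with 3 libraries in each of 6 groups (18 libraries). The Gcn cells are E14 cells of genotype Eif2ak4-/-, which lack GCN2, the kinase that responds to uncharged tRNA. They were deprived of arginine (Gcn Arg) or of leucine (Gcn Leu) for 3 h, or kept in the complete form of that medium (Gcn Unstarved). Wild-type E14 cells were treated in the same 3 ways (Wt Arg, Wt Leu and Wt Unstarved). All 6 groups shared SILAC medium with 5% dialyzed serum and leukaemia inhibitory factor, after growth on gelatin in 15% serum. The labels do not say whether the knockout is 1 clone or several, nor that each replicate came from a culture of its own. The p-values below therefore rest on the spread among these libraries, which may be technical.

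A ribosome has a large subunit, which forms peptide bonds, and a small subunit, which reads the mRNA, and each protein is usually present once in its subunit. Cells make the proteins in matching amounts. The mRNAs of vertebrate ribosomal proteins are known for a terminal oligopyrimidine tract: transcription starts at a C that is followed by a run of C and T. Through this tract the kinase mTORC1 and the binding protein LARP1 control the translation and stability of the mRNAs when amino acids are scarce.

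The tract can be read from annotated transcription starts. RefSeq promoter windows on GRCm38.p6 (250 bases before and 50 bases from the start, 300 bases in all) were present for 62 of the 82 genes. The sequences that follow span 30 bases before the start and 20 bases from it, 5′ to 3′ on the strand of the gene, with the pyrimidine run at the start in capitals. They are shown because Rps10, Rps27l and Rpl28 had the lowest log2 fold changes among the called genes of arginine-starved wild-type cells. Rps6 and Rps18 are further genes that were called lower in one genotype. Rps27 has the run exactly at its annotated start, and its paralog Rps27l does not. Rpl7l1, a paralog that changed with leucine, has no such run at its annotated start either. In Rps27l the pyrimidines cctct follow directly on the first base, so that gene is not shown to lack the tract.
Rps10 (chr17:27635225-27635274, minus strand): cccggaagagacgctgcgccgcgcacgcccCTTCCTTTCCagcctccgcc
Rpl28 (chr7:4792935-4792984, plus strand): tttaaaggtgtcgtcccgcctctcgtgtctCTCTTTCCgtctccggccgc
Rps6 (chr4:86857348-86857397, minus strand): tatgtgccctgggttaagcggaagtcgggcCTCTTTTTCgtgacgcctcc
Rps18 (chr17:33955646-33955695, minus strand): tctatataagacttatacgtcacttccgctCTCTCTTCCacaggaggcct
Rps27 (chr3:90213629-90213678, minus strand): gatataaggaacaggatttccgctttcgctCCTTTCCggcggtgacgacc
Rps27l (chr9:66946056-66946105, plus strand): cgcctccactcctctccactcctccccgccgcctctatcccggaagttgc
Rpl7l1 (chr17:46782637-46782686, minus strand): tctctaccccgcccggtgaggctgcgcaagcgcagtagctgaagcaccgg

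A C followed by at least 4 pyrimidines stood exactly at a RefSeq start in 13 of the 62 genes (21.0%), against 813 of all 27025 genes with a window (3.01%). A start annotated a few bases off would hide the tract, so the remaining 49 genes are not shown to lack it. Searched on both strands of the 300 bases, the letters CCGGAAG, a core of ETS factor sites, were in 25 of 62 windows (40.3%), against 9.93% of all genes. CTCTTTCC was in 16.1% of the windows, against 3.57% of all genes. AAGATGGC, a core of YY1 sites, was in 9.68% against 3.19%, GGGCGG was in 61.3% against 38.2%, and TATAAA was in 11.3% against 15.7%. These matches describe the letters in the windows and show no binding.

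The libraries held 14777012 to 38814785 counts in genes, and the 82 genes took 4.09% to 5.83% of them. Eif2ak4, the targeted gene, had 4.04 to 6.37 CPM (the count divided by the library total and scaled up, with edgeR's TMM factors) in the 9 Gcn libraries and 27.0 to 33.4 CPM in the 9 Wt libraries. Embryonic stem cell markers were abundant: the 8 listed genes (Pou5f1 and Nanog among them) summed to 7513 to 9072 CPM in Gcn libraries and 6543 to 8071 CPM in Wt libraries. The 8 fibroblast markers summed to 9.72 to 14.4 CPM in Gcn libraries and 18.4 to 31.1 CPM in Wt libraries. Among them, Lum was at 0 in all 6 unstarved libraries, but other listed genes were detected there. The list summed to 9.96 to 13.5 CPM in Gcn Unstarved and 18.4 to 24.8 CPM in Wt Unstarved libraries. The 8 primed and lineage markers summed to 118 to 142 CPM in Gcn Arg, 86.8 to 107 CPM in Gcn Leu and 62.0 to 76.4 CPM in Gcn Unstarved libraries. In Wt cells those sums were 60.5 to 71.4 CPM in Wt Arg, 48.6 to 62.5 CPM in Wt Leu and 49.2 to 55.04 CPM in Wt Unstarved. The part of these marker differences in the results was not tested. In bulk RNA, fewer cells of a type and less RNA per cell cannot be told apart.

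Some libraries stood apart in the ribosomal protein genes as a whole. The share of counts was 4.09% in Gcn Arg, 4.34% in Gcn Leu and 4.32% in Gcn Unstarved in the libraries numbered 1, below all the other libraries. On the log2 CPM scale, the median deviation of a gene from its mean over the 18 libraries was -0.42, -0.35 and -0.24 there. In Wt cells the libraries Wt Arg 3 and Wt Leu 3 were lowest, with median deviations of -0.24 and -0.17. Gcn Unstarved 3 was highest, at 0.34. Single genes varied more: Rps29 had 9.71, 29.7 and 27.8 CPM in the 3 Gcn Unstarved libraries. By a rule given below, the numbers were taken to pair the libraries in Gcn cells. The values with the number as a block therefore stand beside the Gcn results. Some Gcn libraries of different numbers passed the same limit, so this pairing is uncertain.

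**Figure D1:**
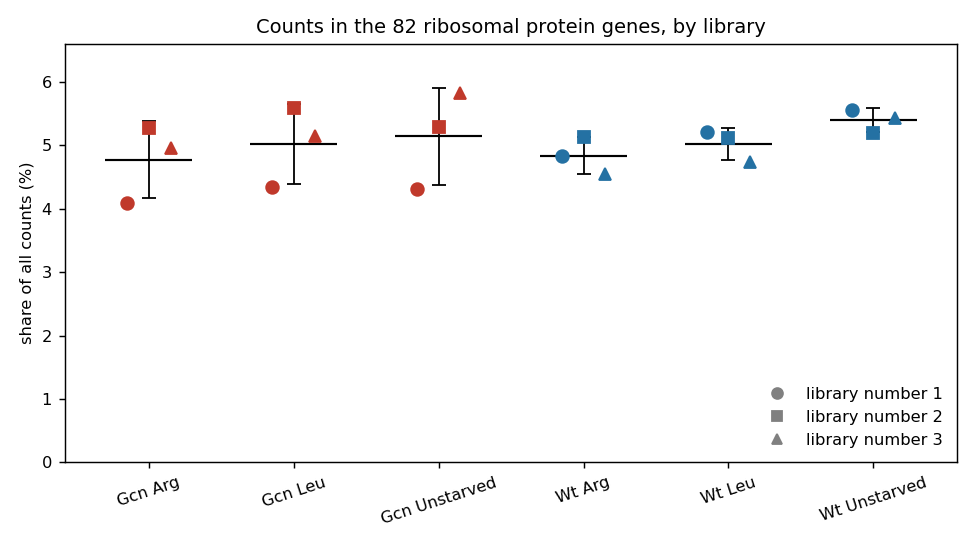
Share of all gene counts (%, y axis) that fell in the 82 ribosomal protein genes, by group (x axis). Each point is 1 library, its shape the library number, and bars give the mean and SD of 3 libraries. The Gcn libraries numbered 1 sit at 4.09% to 4.34%, and Wt Arg means 4.84% against 5.40% in Wt Unstarved.

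In arginine-starved wild-type cells the estimates for ribosomal protein mRNAs of both subunits lay a little below 0, and 25 of the 82 genes were called lower. The genes took 4.84% ± 0.29 of the counts in Wt Arg and 5.40% ± 0.19 in Wt Unstarved libraries (SD, n = 3 each), and the library ranges did not overlap. The 25 lower genes, with 0 higher, passed at an adjusted p under 0.05 (edgeR's quasi-likelihood test with Benjamini-Hochberg adjustment over all genes). Of all 16140 genes tested, 20.0% were called lower and 20.9% higher. The median log2 fold change was -0.20 over the 82 genes and -0.01 over all genes. The estimate was below 0 for 81 of the 82 genes, and for 79 when libraries were scaled by their totals only. At an unadjusted p under 0.05, 35 were lower and 0 higher. The share of all genes at that unadjusted threshold was not computed, so the unadjusted counts here and below have no baseline. DESeq2 called 30 lower and 0 higher, against 17.2% and 16.7% of all genes. Without the library Wt Arg 3, 13 of the 82 were lower, against 17.1% of all genes, and without Wt Arg 2, 34 were, against 16.5% of all genes. With no filter on low counts 40 were lower, against 10.3% of all genes, whose number is then larger by genes of very low counts. With the replicate number as a block the count was also larger, and it is given at the end.

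The subunits had medians of the same size. In the large subunit 15 of 46 core genes were called lower, with a median log2 fold change of -0.21, and in the small subunit 9 of 30 were called lower, also with a median of -0.21. Among the 6 paralogs 1 was called, and their median was -0.10.

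Rps10, a protein of the head of the small subunit that is mutated in some patients with Diamond-Blackfan anaemia, had the lowest log2 fold change. It had 6.39, 5.91 and 5.89 CPM in Wt Arg libraries, against 11.6, 8.75 and 9.32 CPM in Wt Unstarved libraries. All 3 starved values lay under all 3 unstarved ones. The log2 fold change was -0.71 ± 0.12 (SE), with an adjusted p of 0.00022. Rps10 (chromosome 17, 27630418 to 27636669, GRCm38, minus strand) had only 93 to 346 counts per library, and 58.8% of the 43-base words of its mRNA also occur in another annotated gene.

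Rpl28, a large subunit protein, had 303, 289 and 233 CPM in Wt Arg libraries, against 403, 372 and 319 CPM in Wt Unstarved libraries. The groups did not overlap, and the log2 fold change was -0.41 ± 0.11 (SE, adjusted p = 0.012). Rps27l, the paralog of Rps27 known as a target of p53, had 226, 237 and 176 CPM in Wt Arg libraries, against 302, 278 and 271 CPM in Wt Unstarved libraries. Its groups did not overlap either, and its log2 fold change was -0.41 ± 0.12 (adjusted p = 0.016).

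Rpl18, of the large subunit, had 642, 655 and 544 CPM in Wt Arg libraries, against 858, 735 and 781 CPM in Wt Unstarved libraries, a log2 fold change of -0.36 ± 0.08 (adjusted p = 0.0017). Rpl27, also of the large subunit, had 219, 216 and 179 CPM in Wt Arg libraries, against 262, 256 and 270.2 CPM in Wt Unstarved libraries, a log2 fold change of -0.36 ± 0.08 (adjusted p = 0.0029). In both genes every starved library was lower than every unstarved one.

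Genes with known single roles did not all pass the test. Rpl11, which joins the 5S ribosomal RNA and can bind Mdm2, was called lower (-0.30 ± 0.10 on the log2 scale, adjusted p = 0.033), but missed the threshold when any of 4 single libraries was left out. Its partner Rpl5 was at -0.03 ± 0.10 (adjusted p = 0.81). Rps19, the gene most often mutated in Diamond-Blackfan anaemia, was lower by this test (-0.22 ± 0.07, adjusted p = 0.013), but not without Wt Arg 3 or Wt Unstarved 3. Rps6, the substrate of S6 kinase, was at -0.14 ± 0.07 (adjusted p = 0.12). Rpl38, linked to Hox mRNA translation in mouse embryos, was at -0.33 ± 0.32 (adjusted p = 0.46), with libraries of 120, 112 and 64.9 CPM in Wt Arg and 161, 111 and 102 CPM in Wt Unstarved that overlapped. Rpl3, a protein near the peptidyl transferase centre, was the sole gene with an estimate above 0 (0.03 ± 0.09, adjusted p = 0.83).

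In the stalk of the large subunit, which recruits translation factors, Rplp0 was called lower in Wt Arg. It had 1010.0, 974 and 1046 CPM in Wt Arg libraries, against 1251, 1099 and 1265 CPM in Wt Unstarved libraries, a log2 fold change of -0.25 ± 0.06 (adjusted p = 0.0041). Its partners Rplp1 (-0.26 ± 0.11, adjusted p = 0.065) and Rplp2 (-0.29 ± 0.15, adjusted p = 0.15) had estimates of like size and wider errors, and were not called. In the small subunit, Rps2 (-0.25 ± 0.07, adjusted p = 0.0063) and Rps3 (-0.19 ± 0.07, adjusted p = 0.035), which line the mRNA entry channel, were called lower, though the call on Rps3 was lost without any of 4 single libraries. Rps25 and Rps26, which lie near the mRNA exit, were at -0.24 (adjusted p = 0.055) and -0.17 (adjusted p = 0.10). Rpsa, the laminin receptor protein of the small subunit, was at -0.12 (adjusted p = 0.14). Around the exit of the peptide tunnel, Rpl23a, a docking site for factors that meet the nascent chain, was at -0.19 (adjusted p = 0.078). Rpl23 was at -0.17 (adjusted p = 0.38) and Rpl10a, a protein of the L1 stalk, at -0.18 (adjusted p = 0.15). In these 3 genes the starved and unstarved libraries overlapped. The log2 fold changes of the 25 called genes ran from -0.71 for Rps10 to -0.16 for Rpl8. Without the replicate block, 49 of the 82 genes were called in none of the 9 comparisons, and in Wt Arg the estimates of these ran from -0.53 for Rps29 to 0.03 for Rpl3.

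**Figure D2:**
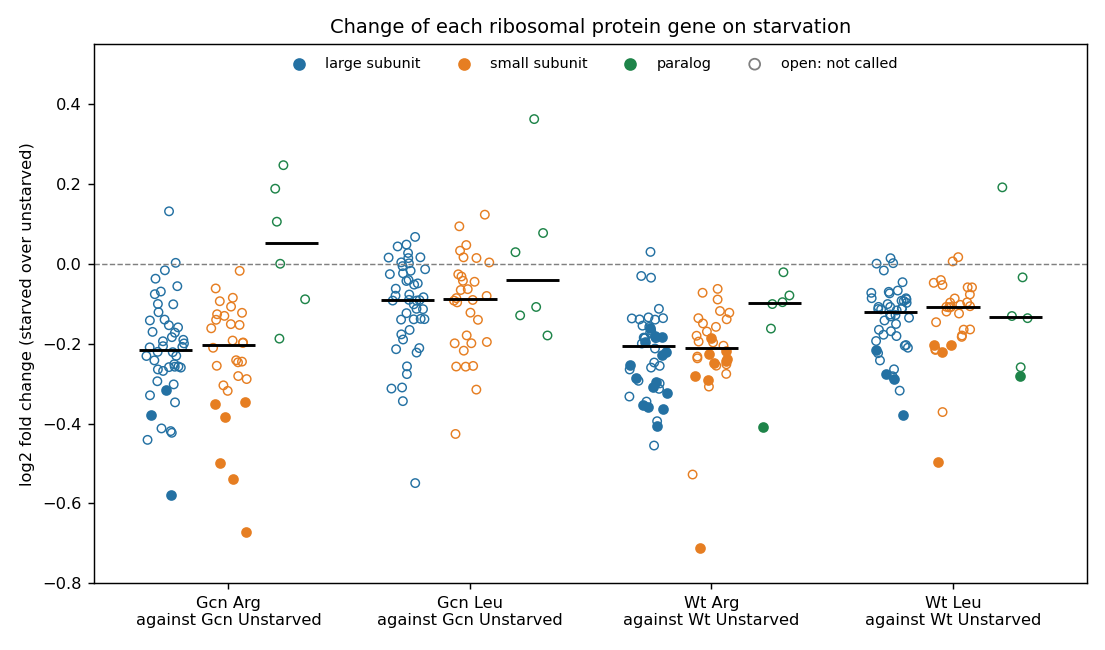
log2 fold change (y axis, starved over unstarved) of each of the 82 genes in 4 comparisons (x axis), with core large subunit genes in blue, core small subunit genes in orange and paralogs in green. Filled points were called at an adjusted p under 0.05, open points were not, and black bars are medians. The medians of both subunits lie at -0.21 in Wt Arg, and the lowest point, Rps10, at -0.71.

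Leucine starvation of wild-type cells gave estimates below 0 for most of these genes, of which few were called. The share of counts was 5.02% ± 0.25 in Wt Leu and 5.40% ± 0.19 in Wt Unstarved libraries (SD, n = 3 each), with overlapping ranges. By edgeR, 9 of 82 genes were called lower and 0 higher, against 14.1% and 15.5% of all genes. With no filter on low counts 18 were lower, against 7.18% of all genes. The median log2 fold change was -0.12, against 0.01 over all genes, and the estimate was below 0 for 76 genes. DESeq2 called 13 lower and 0 higher, against 15.7% and 15.3% of all genes. At an unadjusted p under 0.05 there were 16 lower and 0 higher. Without Wt Leu 3, or without Wt Unstarved 3, 5 genes were called lower, against 12.4% and 10.7% of all genes. The count with the replicate number as a block was larger, and it is given at the end.

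The 9 genes were Rps10, Rpl41, Rpl18, Rpl36a, Rpl7l1, Rplp0, Rps2, Rps3 and Rps9, and 7 of them were also called in Wt Arg; both comparisons share the Wt Unstarved libraries. Rps10 had 7.65, 7.31 and 6.17 CPM in Wt Leu libraries, against 11.6, 8.75 and 9.32 CPM in Wt Unstarved libraries, a log2 fold change of -0.50 ± 0.12 (SE, adjusted p = 0.0063). Rpl41, which encodes the shortest protein of the ribosome, had 415, 384 and 332 CPM in Wt Leu libraries, against 561, 453 and 454 CPM in Wt Unstarved libraries (-0.38 ± 0.13, adjusted p = 0.044). In both genes the groups did not overlap. Rpl18 was at -0.29 ± 0.08 (adjusted p = 0.013) and Rpl36a at -0.28 ± 0.10 (adjusted p = 0.049). Among the 9 genes, Rpl41, Rpl18, Rpl36a, Rplp0, Rps2 and Rps3 missed the threshold when one of several single libraries was left out, Wt Leu 3 or Wt Unstarved 3 among them. Rps10 and Rpl7l1 did not.

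Between the starvations, ribosomal protein mRNAs tended to be a little higher in Wt Leu than in Wt Arg, with a median log2 fold change of 0.08 (Leu over Arg), against 0.00 over all genes. edgeR called 1 gene lower (Rpl7l1) and 0 higher, against 4.76% and 5.25% of all genes. At an unadjusted p under 0.05, 1 was lower and 3 were higher. DESeq2 called 1 lower and 0 higher, against 6.54% and 6.98% of all genes. The numbers pair the Wt Leu with the Wt Arg libraries. With the number as a block, 2 genes were lower and 9 higher, against 9.98% and 10.6% of all genes. The lower ones were Rpl7l1 and Rpl3, and among the higher ones Rpl28 was at 0.19 (adjusted p = 0.0044) and Rpl13a, a large subunit protein known for repressing translation of inflammatory mRNAs, was at 0.29 (adjusted p = 0.012).

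**Figure D3:**
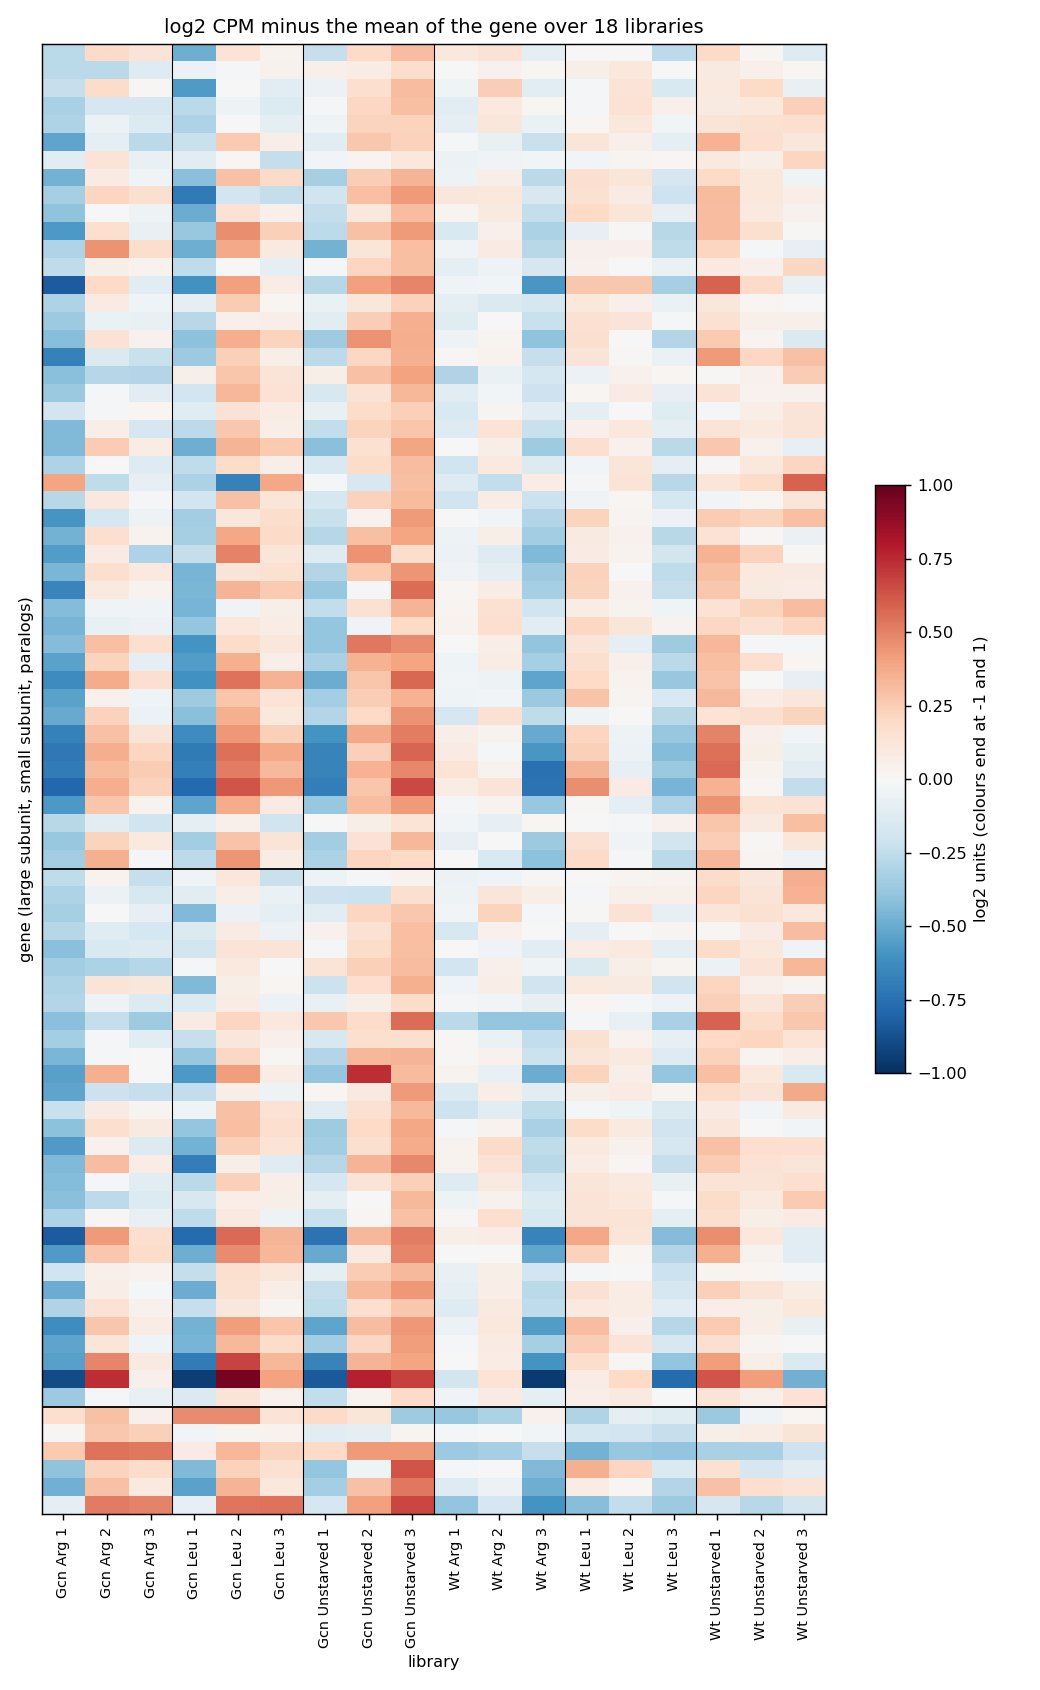
Deviation of each of the 82 genes (rows, without names) from its own mean over 18 libraries (columns), in log2 CPM units, with red above and blue below and the colours ending at -1 and 1. Black lines part the groups and the large subunit, small subunit and paralogs. The Gcn libraries numbered 1 and the library Wt Arg 3 are blue over most rows, with median deviations of -0.42, -0.35, -0.24 and -0.24.

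In Gcn cells, arginine starvation gave a median log2 fold change of -0.20 over the 82 genes, against -0.01 over all genes, and the estimate was below 0 for 77 genes (63 with scaling by totals only, where the median was -0.09). The share of counts was 4.78% ± 0.61 in Gcn Arg and 5.14% ± 0.76 in Gcn Unstarved libraries (SD, n = 3 each), with overlapping ranges. By edgeR, 9 genes were called lower and 0 higher, against 13.7% and 14.3% of all 16369 genes tested. At an unadjusted p under 0.05, 13 were lower and 1 was higher. DESeq2 called 12 lower and 0 higher, against 13.5% and 12.2% of all genes. With the library number as a block, 53 genes were lower and 1 (Rpl7l1) was higher, against 24.2% and 22.3% of all genes. Pair by pair, 76, 60 and 79 of the 82 genes were lower in the Gcn Arg library than in the Gcn Unstarved library of numbers 1, 2 and 3. Without the 3 libraries numbered 1, 24 genes were lower and 1 was higher, against 12.5% and 13% of all genes. Leaving out single libraries moved the count of lower genes from 9 to 4 without Gcn Arg 1, to 3 without Gcn Unstarved 3 and to 14 without Gcn Unstarved 1. Over the fits that left out 1 library, 9.36% to 12.0% of all genes were called lower.

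The 9 genes were 6 of the 31 small subunit genes, among them Rps10, Rps7, Rps14, Rps6 and Rps19. The rest were 3 of the 51 large subunit genes, Rpl6 and Rpl4 among them, with paralogs counted in both totals. Of all genes, 13.7% were called lower, and the difference between the subunits was not tested. Rps10 had 5.77, 6.54 and 6.03 CPM in Gcn Arg libraries, against 9.32, 8.77 and 11.3 CPM in Gcn Unstarved libraries, a log2 fold change of -0.67 ± 0.13 (SE, adjusted p = 0.0017). Rps7, which acts in small subunit assembly and can bind Mdm2, had 844, 859 and 877 CPM in Gcn Arg libraries, against 1180.2, 1266 and 1326 CPM in Gcn Unstarved libraries (-0.54 ± 0.08, adjusted p = 0.00037). In both genes every starved library was below every unstarved one.

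Rps14, whose human counterpart lies in the region deleted in the 5q- syndrome, had 1213, 1508 and 1486 CPM in Gcn Arg libraries, against 1772, 1864 and 2352 CPM in Gcn Unstarved libraries (-0.50 ± 0.13, adjusted p = 0.011). Rps6 had 156, 188 and 190.1 CPM in Gcn Arg libraries, against 206, 237 and 258 CPM in Gcn Unstarved libraries (-0.38 ± 0.12, adjusted p = 0.031). Neither pair of groups overlapped, although both calls were lost without Gcn Unstarved 3. Rps19 was at -0.35 ± 0.12 (adjusted p = 0.048), and this call was also lost without that library. Among the 4 genes called lower in both Gcn Arg and Wt Arg were Rps10, Rps14 and Rps19. In Wt Arg, Rps7 was at -0.20 ± 0.09 (adjusted p = 0.10).

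Leucine starvation of Gcn cells gave no call among the 82 genes without the block. edgeR called 0 lower and 0 higher, against 10.0% and 11.7% of all genes, while 7 were lower and 0 higher at an unadjusted p under 0.05, and DESeq2 called 2 lower and 0 higher. The median log2 fold change was -0.09, against 0.00 over all genes, and it was -0.01 with scaling by totals only and 0.05 without the library Gcn Leu 1. With the number as a block, 26 genes were called lower and 0 higher, against 20.2% and 20.5% of all genes. Without Gcn Unstarved 1, and with no block, 5 were called lower, against 7.71% of all genes. In pairs of the same number, 68, 32 and 79 of the 82 genes were lower in the Gcn Leu library, so the second pair went the other way for most genes. The lowest estimate was that of Rpl10, a late-joining protein of the large subunit, with 245, 350.3 and 339 CPM in Gcn Leu libraries, against 348, 492 and 536 CPM in Gcn Unstarved libraries. Its groups overlapped, and its log2 fold change was -0.55 ± 0.21 (SE, adjusted p = 0.085), with an adjusted p of 3.3e-07 under the block.

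Set against each other, Gcn Leu stood above Gcn Arg with a median log2 fold change of 0.13 (Leu over Arg), against 0.00 over all genes. This median was -0.03 without Gcn Arg 1 and -0.02 without Gcn Leu 2. edgeR called 0 genes lower and 3 higher, against 3.88% and 4.64% of all genes, and at an unadjusted p under 0.05 there were 1 lower and 5 higher. DESeq2 called 0 lower and 3 higher, against 6.22% and 7.51% of all genes. Among them, Rps7 had 1059, 1148 and 1069 CPM in Gcn Leu libraries, against 844, 859 and 877 CPM in Gcn Arg libraries (0.34 ± 0.08, adjusted p = 0.022). Rps10 had 8.19, 8.98 and 8.32 CPM in Gcn Leu libraries, against 5.77, 6.54 and 6.03 CPM in Gcn Arg libraries (0.47 ± 0.13, adjusted p = 0.038). The groups did not overlap in either gene, but each of the 3 calls was lost without Gcn Leu 2. Under the block 5 genes were lower and 24 higher, against 12.3% and 14.4% of all genes, and Rpl10 was the lowest of them at -0.39 (adjusted p = 2.1e-05).

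Between the genotypes without starvation, few ribosomal protein mRNAs passed the test. The median log2 fold change of Gcn Unstarved over Wt Unstarved was 0.00 over the 82 genes and 0.00 over all genes. By edgeR across all 18 libraries, 1 gene was lower (Rps3) and 1 was higher (Rpl10l), against 16.2% and 16.6% of all 16924 genes tested. At an unadjusted p under 0.05, 3 were lower and 2 higher. DESeq2 called 1 lower and 2 higher, against 12.3% and 13.1% of all genes. The median depended on single libraries: it was 0.16 without Gcn Unstarved 1 and -0.13 without Gcn Unstarved 3. Without the 3 Gcn libraries numbered 1, 1 gene was lower and 5 were higher, against 16.6% and 14.9% of all genes. Without Wt Unstarved 2, 3 genes were lower (14.7% of all genes), and without Gcn Unstarved 3, 2 were lower (14.0%). Without Gcn Unstarved 1, 2 were higher (13.2%). Rps3 had 1952, 1939.6 and 2523 CPM in Gcn Unstarved libraries, against 2617, 2466 and 2864 CPM in Wt Unstarved libraries. These groups overlapped, and the log2 fold change of -0.31 ± 0.09 (SE, adjusted p = 0.014) missed the threshold without Gcn Unstarved 1, Gcn Unstarved 2 or Wt Unstarved 3.

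The difference between the genotypes in the response to starvation was tested as the change in Gcn cells minus that in Wt cells. For arginine, 0 genes were called lower and 0 higher, against 1.68% and 0.62% of all genes, with 3 lower and 1 higher at an unadjusted p under 0.05. By DESeq2, 1 was lower and 1 higher, against 5.04% and 2.09% of all genes. The median difference was -0.01, and it was 0.08 with scaling by totals only. For leucine, 0 were lower and 0 higher, against 0.668% and 0.154% of all genes, with 0 lower and 1 higher at an unadjusted p under 0.05. By DESeq2, 0 were lower and 1 higher for leucine, against 2.14% and 1.01% of all genes. The median difference for leucine was 0.04, and it was -0.10 without Gcn Unstarved 1 and 0.17 without Gcn Leu 1. For arginine, 1 gene was called higher without Gcn Arg 1 (0.923% of all genes), where the median difference was 0.15. With the replicate number as a block within each genotype, the arginine test called 5 lower and 2 higher, against 8.89% and 5.91% of all genes, and the leucine test 5 lower and 1 higher, against 6.67% and 4.43%. The Wt numbers passed the pairing rule used here only for Wt Leu with Wt Arg, which limits that fit. P-values over the threshold do not show that the genotypes respond alike. The estimates nearest to a call belonged to Rpl7l1, at 0.34 ± 0.10 for arginine (adjusted p = 0.076) and 0.35 ± 0.10 for leucine (adjusted p = 0.11), and both passed under the block (adjusted p = 0.0016 and 0.0019).

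**Figure D4:**
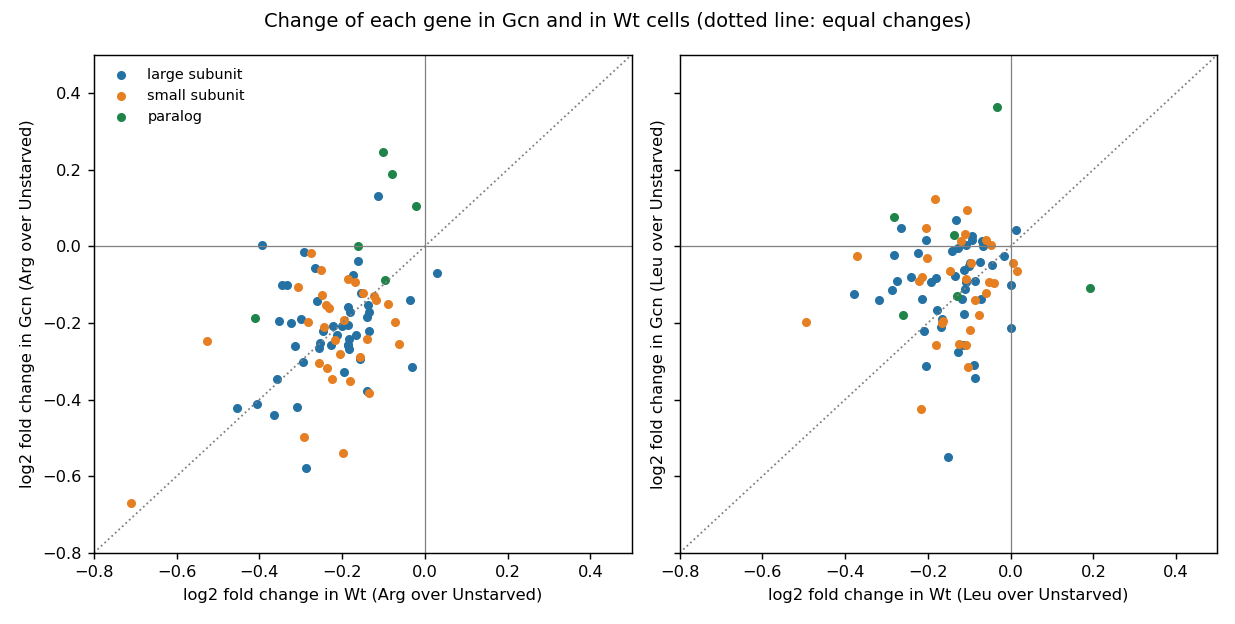
Change of each of the 82 genes in Gcn cells (y axis) against that in Wt cells (x axis), as log2 fold change of starved over unstarved, for arginine (left) and leucine (right). The dotted line marks equal changes, and colours mark the subunits and paralogs. For arginine, Rps10 lies at the lower left, at -0.67 in Gcn cells and -0.71 in Wt cells, and Rpl7l1 lies above the line, at 0.25 in Gcn cells and -0.10 in Wt cells.

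The level of the genes per length of mRNA spanned more than 3 orders on the log10 scale, although ribosomal proteins are mostly present once per ribosome. Rpl8 and Rps14 were highest, at 3023 and 2650.0 CPM per kb of mRNA (mean of 18 libraries). Rpl24, Rpl3l and Rps10 were lowest, at 0.933, 1.15 and 8.91 CPM per kb. Rpl24 and Rps10 encode core proteins of every ribosome, and their counts were low (9 to 32 per library for Rpl24). Of the 43-base words of their mRNAs, 81.9% and 58.8% occur in other annotated genes. Such words occurred in 80 of the 82 genes, covered over 50% of the mRNA in 43 genes, and had a median share of 51.6%. Reads that fit several genes may be dropped or split by the counting, so levels across genes are uncertain. In addition, exons of 27 of the genes overlap another annotated gene on the same strand and those of 19 one on the other strand. The 43 genes over 50% had a median log2 fold change of -0.21 in Wt Arg (11 called lower), and the 39 others -0.19 (14 called lower), where 20.0% of all genes were called lower.

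As counted, the paralogs ranged from near absence to a sizeable part of their core gene's level, but the ratio within a pair is uncertain. Shared 43-base words covered 98.7% of the Rps27 mRNA and 25.2% of Rps27l, and 85.5% of Rpl10 and 12.1% of Rpl10l. The share was larger in the core gene of every pair but Rpl22 (6.57%) and Rpl22l1 (67.5%). The effect of this on the levels was not tested. Per kb of mRNA, Rps27l had 507 CPM and Rps27 1119.9 CPM, and Rpl22l1 had 206 CPM and Rpl22 309 CPM. Rpl10l, an intronless copy known in mice for replacing the X-linked Rpl10 in male germ cells, had 163 CPM per kb, against 476 for Rpl10. Rpl7l1 had 174 against 1362 CPM per kb for Rpl7, and Rpl39l, best known from the testis, had 33.0 against 142 for Rpl39. Rpl3l, known as the form of heart and skeletal muscle, had 1.15 CPM per kb, against 299.6 for Rpl3.

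**Figure D5:**
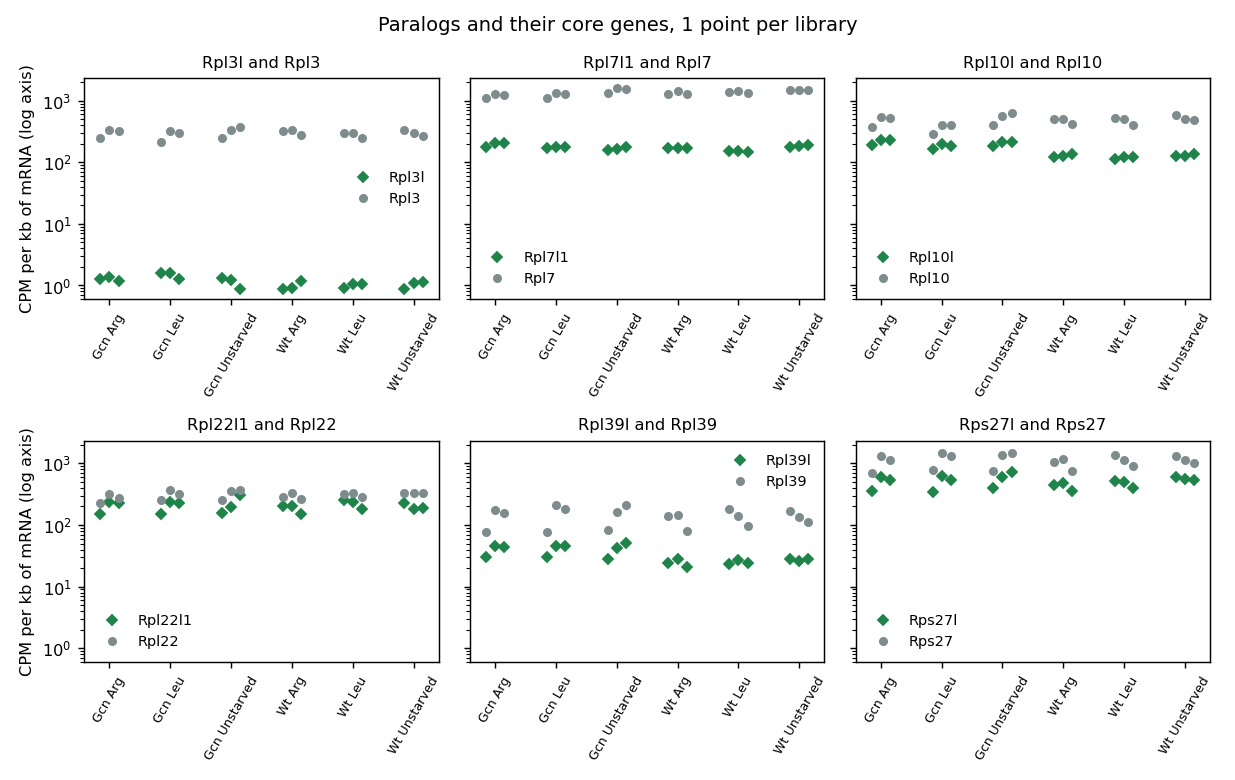
Level of the 6 paralogs (green) and of their core genes (grey) in CPM per kb of mRNA (log axis, y), by group (x axis), with 1 point per library. Rpl3l lies near 1.15 CPM per kb on average and its core gene Rpl3 near 299.6, while Rpl10l stands higher in the Gcn libraries than in the Wt libraries.

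Rpl10l was the gene with the clearest difference between genotypes. It had 185, 217 and 216 CPM in Gcn Unstarved libraries, against 129, 129 and 140 CPM in Wt Unstarved libraries. The groups did not overlap, the log2 fold change was 0.64 ± 0.09 (SE), and the adjusted p was 5.6e-06. It was 171 to 235 CPM in the 9 Gcn libraries and 116 to 140 CPM in the 9 Wt libraries, so the order held in the starved cells too. Rpl39l leaned the same way, with 22.7, 33.9 and 40.6 CPM in Gcn Unstarved libraries and 22.7, 21.1 and 22.5 CPM in Wt Unstarved libraries. Those groups overlapped, and the log2 fold change was 0.55 ± 0.21 (adjusted p = 0.051).

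Rpl7l1 was called lower with leucine starvation in wild-type cells. It had 402, 396 and 385 CPM in Wt Leu libraries, 445, 451 and 442 CPM in Wt Arg libraries and 469, 474 and 493 CPM in Wt Unstarved libraries. The 3 groups did not overlap. The log2 fold change was -0.28 ± 0.05 for Wt Leu over Wt Unstarved (SE, adjusted p = 0.00095), and -0.18 ± 0.05 for Wt Leu over Wt Arg (adjusted p = 0.045), a call that was lost whenever any 1 of the 6 libraries was left out. In Gcn cells it had 455, 545 and 533 CPM in Gcn Arg libraries, 442, 459 and 463 CPM in Gcn Leu libraries and 418, 422 and 461 CPM in Gcn Unstarved libraries. Arginine starvation gave 0.25 ± 0.09 there (adjusted p = 0.065, and 0.0013 under the block), the opposite sign to the other genes called there. Under the block Gcn Leu over Gcn Arg was at -0.17 (adjusted p = 0.028). Rpl22l1 and Rpl3l had log2 fold changes of -0.10 and -0.08 in Wt Arg, and neither passed a test without the block. Under the block Rpl22l1 was higher in Wt Leu than in Wt Arg (0.29 ± 0.09, adjusted p = 0.046).

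The 13 genes with a pyrimidine run exactly at the RefSeq start were 7 of the large and 6 of the small subunit. Their medians stood close to those of the 49 genes with no run at that exact base. Those 49 are not shown to lack the tract, so this split does not part genes with the tract from genes that lack it. In Wt Arg the median log2 fold change was -0.26 with the run (5 called lower) and -0.20 without it (15 called lower), and 20.0% of all genes were called lower. In Gcn Arg the medians were -0.17 and -0.21. Across the 82 genes in Wt Arg, Spearman's rho of the change was 0.43 with mRNA length, -0.40 with GC content, -0.08 with the share of shared 43-base words and 0.25 with mean level. All genes share the same 6 libraries there, and genes are not independent replicates. In Gcn Arg these rho were -0.08, -0.13, -0.23 and -0.13.

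Components of the ribosome outside the symbol rule had estimates below 0 in Wt Arg. Fau, a ubiquitin-like protein fused to a small subunit protein, was at -0.43 ± 0.24 (SE, adjusted p = 0.20), Rpl36al, a copy of Rpl36a, at -0.37 ± 0.18 (adjusted p = 0.11), and Rack1, a scaffold on the small subunit, at -0.10 ± 0.06 (adjusted p = 0.20). None of these 3 was called there. In Gcn Arg, Rpl36al had 6.71, 5.66 and 7.06 CPM in Gcn Arg libraries, against 8.67, 7.14 and 10.5 CPM in Gcn Unstarved libraries, and was called lower (-0.44 ± 0.15, adjusted p = 0.049). Those groups did not overlap.

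Among 12 translation factors and related genes whose mRNAs are known to carry the same tract, 4 were called lower and 0 higher in Wt Arg, against 20.0% and 20.9% of all genes, and the median was -0.06. The calls of largest size were Eif3f (-0.24 ± 0.05, adjusted p = 0.0020) and Eef1g (-0.20 ± 0.06, adjusted p = 0.0098). In Wt Leu 3 were lower and 0 higher, against 14.1% and 15.5% of all genes, led by Eif3f (-0.25) and Eif3h (-0.22). In Gcn Arg 4 were lower and 0 higher, against 13.7% and 14.3% of all genes, with a median of -0.24. Eif4b had 685, 705 and 627 CPM in Gcn Arg libraries, against 988, 991 and 874 CPM in Gcn Unstarved libraries (-0.49 ± 0.09, adjusted p = 0.0012), and the poly(A)-binding protein gene Pabpc1 was at -0.41 ± 0.08 (adjusted p = 0.0020). In Gcn Leu 3 were lower and 0 higher, against 10.0% and 11.7% of all genes, with Eif3f at -0.56 and Eif3h at -0.51. The test of the difference between genotypes called 2 of the 12 for arginine, both more negative in Gcn cells, as were 1.68% of all genes: Eef1a1 (-0.39 ± 0.10, adjusted p = 0.030) and Pabpc1 (-0.38 ± 0.09, adjusted p = 0.026).

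Of 8 regulators of these mRNAs, 2 were lower and 1 was higher in Wt Arg, against 20.0% and 20.9% of all genes, with Eif4ebp2 at -0.23 ± 0.06 (adjusted p = 0.0067). In Gcn Arg 3 were lower and 1 higher, against 13.7% and 14.3% of all genes, with Eif4ebp2 at -0.36 and the mTORC1 subunit gene Rptor at 0.36 ± 0.11 (adjusted p = 0.026). Eif4e, the cap-binding protein, was lower in Wt Leu (-0.45 ± 0.07, adjusted p = 9.2e-05) and in Gcn Leu (-0.41 ± 0.09, adjusted p = 0.0056). Eif4ebp1 differed between genotypes in its response to arginine starvation (-0.49 ± 0.10, adjusted p = 0.011).

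Dedicated chaperones and importers of ribosomal proteins split by gene. Grwd1, whose yeast counterpart is a chaperone of Rpl3, had 156, 144 and 150.5 CPM in Wt Arg libraries and 141, 146 and 149 CPM in Wt Leu libraries, against 206, 212 and 223 CPM in Wt Unstarved libraries. It was called lower in both (-0.51 ± 0.06, adjusted p = 3.1e-06, and -0.56 ± 0.06, adjusted p = 3.0e-06). Tsr2, the chaperone of Rps26, had 72.2, 70.5 and 76.2 CPM in Wt Arg libraries, against 56.8, 54.5 and 60.2 CPM in Wt Unstarved libraries, and was called higher (0.35 ± 0.06, adjusted p = 0.00026). Tsr2 was also higher in Gcn Leu (0.57 ± 0.09, adjusted p = 0.00069). In all, 2 of 8 were lower and 2 higher in Wt Arg, against 20.0% and 20.9% of all genes, and 3 lower and 1 higher in Gcn Arg, against 13.7% and 14.3%.

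The mitochondrial ribosome is built from a separate set of nuclear genes. In Wt Arg 34 of the 77 tested were called lower and 4 higher, against 20.0% and 20.9% of all genes, with a median log2 fold change of -0.16. In Wt Leu 20 were lower and 2 higher (median -0.09), against 14.1% and 15.5% of all genes. Gcn Arg had 9 lower and 4 higher (median -0.06), against 13.7% and 14.3%, and Gcn Leu 6 lower and 5 higher (median 0.01), against 10.0% and 11.7%. Mrpl14 had 12.9, 12.3 and 10.7 CPM in Wt Arg libraries, against 27.3, 26.7 and 28.0 CPM in Wt Unstarved libraries, a log2 fold change of -1.19 ± 0.10 (adjusted p = 1.1e-07). It was lower in Gcn Arg too (-0.97 ± 0.14, adjusted p = 0.00019). The log2 fold changes of the 82 cytosolic genes in these comparisons were all smaller. Pseudogenes named after ribosomal proteins passed the count filter in 98 of 299 cases in the Wt fit, where 5 were called lower and 0 higher in Wt Arg (median -0.16), against 20.0% and 20.9% of all genes.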

How the data were processed

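Poly(A) RNA from 18 libraries was sequenced with a directional kit as 2 reads of 43 bp per fragment, per the labels' protocols. The authors deposited counts per gene, made with STAR 2.7.4a and HTSeq on GRCm38, per the submitters' processing notes, which also list FastQC 0.11.7, bcl2fastq, DESeq2, DESeq 1.30.1 and R 4.0.3. For the counting, neither annotation nor strand setting is named; both are not given in the sources used. Antisense and overlapping genes may therefore share reads. Symbols came from GENCODE vM21 for 55230 of 55471 identifiers, and the 241 others held at most 0.00236% of a library's counts. The deposited normalized tables were not used.

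Counts were tested with edgeR 4.0.16 (quasi-likelihood test, filterByExpr, TMM scaling, Benjamini-Hochberg adjustment over all genes, threshold 0.05) in R 4.3.3. The Wt fit held 9 libraries and 16140 genes and the Gcn fit 9 libraries and 16369 genes. The genotype and the difference between responses came from a fit of all 18 libraries and 16924 genes. Levels are CPM after TMM scaling over 18 libraries. The code was tested on simulated data. Summaries were made with Python 3.11.15. Alternatives were DESeq2 1.42.0, other scalings, no filter, the replicate number as a block, a GC correction and leaving out libraries. Depth was 14777012 to 38814785 counts per library.

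The numbers were taken to pair libraries where every same-numbered correlation of deviations exceeded 0.1. In Gcn cells these were 0.18 to 0.49, so the numbers were taken to pair them. The rule did not use different-numbered correlations, which ran from -0.38 to 0.22 in Gcn cells and so overlap that range. Gcn Arg 2 was at 0.22 with Gcn Unstarved 3 and at 0.19 with Gcn Unstarved 2. In Wt cells the same-numbered correlations ran from 0.05 to 0.28, and only Wt Leu with Wt Arg passed the rule. Different-numbered Wt correlations were all below 0, from -0.24 to -0.004. Missing the rule therefore does not show that the Wt numbers carry no pairing. The genes and lists were chosen with earlier results of these data known. Named genes are the 5 called with the largest change per comparison and direction, the paralogs with their core genes, the stalk proteins and Rpsa, the 3 highest and 3 lowest per length, and genes of known role. Rpl4, Rpl6, Rps9, Rps18 and Rps29 fall outside this rule and were chosen after their values were seen. Some genes of the rule and of the lists are not reported here by name.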

Additional observations from a re-analysis of the deposited data

How the results depend on the processing

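Of the results for single named genes, 4810 kept their side of the threshold, 265 passed it only under an alternative and 83 no longer passed it. Direction was compared only where a fit called the gene, so uncalled estimates among the 4810 may have changed sign. Among results with a call, 1 reversed. This was Rpl8 in Wt Arg, at 0.0063 (log2) with the replicate block and the GC correction, and the cause was not tested. Counts of called genes moved as follows, and the cause was not tested. With no low-count filter, the Wt cells had 40 lower genes with arginine starvation and 18 with leucine starvation (10.3% and 7.18% of all genes). The Gcn cells had 19 and 4 (8.44% and 5.29% of all genes). In that setting Wt Leu over Wt Arg had 0 lower and 1 higher (2.67% and 2.96% of all genes) and Gcn Leu over Gcn Arg 6 higher (3.63%). The genotypes had 2 lower (7.5%) and the arginine interaction 1 lower (1.85%). DESeq2 gave 2 lower in Gcn Leu (11.2% of all genes) and 2 higher between genotypes (13.1%). It gave 1 lower and 1 higher for the arginine interaction (5.04% and 2.09%) and 1 higher for the leucine interaction (1.01%). RLE scaling gave 1 lower in Gcn Leu, against 10.3% of all genes. Scaling by totals gave 4 lower and 1 higher in Gcn Arg (8.53% and 21.1% of all genes) and 2 lower between genotypes (18.5%). It gave 1 higher in each interaction (1.76% for arginine and 0.473% for leucine). It moved the median of all genes in Gcn Arg to 0.11, with 3449 higher and 1397 lower, against 2339 and 2244 with TMM. In Gcn Leu it gave 2609 higher and 1066 lower, against 1920 and 1641. In the arginine interaction it gave 298 and 162, against 105 and 285, and in the leucine interaction 80 and 77, against 26 and 113.

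With the replicate block, 61 genes were lower in Wt Arg and 28 in Wt Leu, against 25.2% and 20.2% of all genes. There the numbers missed the pairing rule for starved with unstarved libraries. The block gave 53 lower and 1 higher in Gcn Arg, 26 lower in Gcn Leu, 5 lower and 24 higher for Gcn Leu over Gcn Arg, and 2 lower and 9 higher for Wt Leu over Wt Arg. Between genotypes it gave 9 lower and 5 higher, against 23.4% and 23.2% of all genes. For the arginine interaction it gave 5 and 2, and for the leucine interaction 5 and 1. With the GC correction added to the block, the counts were 58 in Wt Arg and 26 in Wt Leu (25.1% and 19.2% of all genes lower). Gcn Arg had 54 and 1 (25.9% and 23.4% of all genes), and Gcn Leu 30 and 1 (22.1% and 21.9%). Gcn Leu over Gcn Arg had 7 and 28 (14.2% and 16.5%), and Wt Leu over Wt Arg 2 and 9 (9.78% and 10.5%). With that correction the genotypes had 5 and 13, against 22.4% and 23.2% of all genes. The interactions had 8 and 1 for arginine (8.89% and 5.23% of all genes) and 6 and 1 for leucine (6.86% and 4.12%).

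Without the 3 Gcn libraries numbered 1, an alternative chosen with earlier results of these data known, the counts were 24 lower and 1 higher in Gcn Arg, 6 lower in Gcn Leu, 1 lower for Gcn Leu over Gcn Arg, 5 higher between genotypes and 1 higher in the arginine interaction. Of all genes, 12.5% were then lower and 13% higher in Gcn Arg, 8.95% lower in Gcn Leu and 3.27% lower for Gcn Leu over Gcn Arg. Between genotypes 14.9% were higher, and in the arginine interaction 1.07% were. Leaving out single libraries gave 13 to 34 lower in Wt Arg, 5 to 9 in Wt Leu, 0 to 0 for Wt Leu over Wt Arg, 3 to 14 lower and 0 to 1 higher in Gcn Arg, and 0 to 5 in Gcn Leu. It gave 0 to 2 higher for Gcn Leu over Gcn Arg, 0 to 3 lower and 1 to 2 higher between genotypes, and 0 to 1 higher in the arginine interaction. Of all genes, those fits called 16.5% to 19.1% lower in Wt Arg and 10.7% to 13.3% in Wt Leu. They called 9.36% to 12.0% lower in Gcn Arg, 6.12% to 8.8% in Gcn Leu and 12.7% to 14.7% between genotypes. For Wt Leu over Wt Arg they called 2.49% to 3.23% lower. The shares called higher were 10.0% to 12.3% in Gcn Arg, 12.3% to 15.4% between genotypes and 2.14% to 3.69% for Gcn Leu over Gcn Arg. In the arginine interaction 0.219% to 0.923% were called higher. Genes with few counts, such as Rpl24 (9 to 32), limit what can be seen.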
